A study of Mus musculus with 20 samples.

Results

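The comparison asked whether losing 1 copy of Runx2 changed transcripts in the same way in both of the cell populations that were sorted from mouse bone marrow and cultured. Its members are 12 of the 18 RNA libraries of the series (20 samples in all), taken by their group labels. They form 4 groups of 3 libraries: HSC heterozygous for a Runx2 knockout (HSC het), wild-type HSC (HSC WT), HPC heterozygous for a Runx2 knockout (HPC het) and wild-type HPC (HPC WT). HSC are primary cells of the phenotype CD201+CD150+Kit+Sca1+Lin-, the surface profile of haematopoietic stem cells. HPC are primary cells of the phenotype CD201-CD150-Kit+Sca1+Lin-, the profile of progenitors. All 4 groups were cultured, and the series studies Runx2 in stem cell expansion and in commitment to the T-cell lineage. Its design text names Runx2-flox mice as well as CRISPR knockout. Which of them gave a library, which Cre was used and whether replicates are separate animals or cultures is not stated in the labels, so p-values cover only the variation among these libraries, possibly technical.

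Runx2 encodes a DNA-binding protein of the RUNX family, which acts as a dimer with core-binding factor beta (Cbfb) and both activates and represses genes. It is best known as the master regulator of bone formation. In blood, its relative Runx1 is required for stem cells to arise, and Runx3 is known for its part in T-cell fate.

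The quantity of interest is the het effect in HSC minus the het effect in HPC. Each effect is the log2 change of het over WT, so a difference above 0 means that a transcript stood higher in HSC het, relative to HSC WT, than it did in HPC het, relative to HPC WT. The 2 count tables were joined over 49997 genes, 2901 genes on X or Y were left out, and 14432 of the remaining 47096 passed the filter on low counts. A gene is called at an adjusted p under 0.05 in edgeR's quasi-likelihood test. Levels are CPM, counts scaled to the size of each library, changes are log2 values ± standard error, and coordinates are those of mm10.

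The libraries held 16663497 to 27061457 counts, so that 3 counts correspond to 0.111 to 0.18 CPM, a floor that covers counting error only. Mitochondrial genes took 1.46% to 2.38% of the counts. The Y-linked gene Ddx3y was at 123 to 167 CPM in the 6 HSC libraries and at 0 counts in the 6 HPC libraries. Xist, which is expressed from the inactive X chromosome, was at 0 to 0.328 CPM in the HSC libraries and at 2539 to 4316 CPM in the HPC libraries. A difference between HSC and HPC and a difference between male and female cells therefore cannot be told apart here. The spread between libraries was larger in HSC than in HPC (biological coefficient of variation 0.0918 in HSC and 0.0661 in HPC).

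Runx2 itself (chr17:44495987-44814797) fell in both populations. It stood at 87.0, 92.6 and 84.7 CPM in HSC het, against 123, 130 and 127 CPM in HSC WT, a change of -0.52 ± 0.06 (adjusted p = 4.2e-05) to 69.7% of the WT mean. In HPC het it stood at 109, 112 and 103 CPM, against 126, 133 and 133 CPM in HPC WT, a change of -0.28 ± 0.06 (adjusted p = 0.0034) to 82.6% of the WT mean. All het libraries lay below all WT libraries of their population. The 2 effects differed by -0.25 ± 0.09, which did not pass the test (adjusted p = 0.14).

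None of the other family members had a called difference, and the RUNX factors and partners had 0 called differences among 11 tested members. Runx1 rose in HPC by 0.21 ± 0.06 (adjusted p = 0.024) and its value in HSC was 0.05 ± 0.06. Runx3, whose levels are uncertain because the annotation holds a copy on an alternate contig, fell in HPC by 0.20 ± 0.06 on the log2 scale (adjusted p = 0.037), beside 0.06 ± 0.06 in HSC. The fall of Runx3 in HPC was not called with all 18 RNA libraries in the fit (adjusted p = 0.0957). Cbfb passed neither test, at -0.19 ± 0.06 in HSC and -0.12 ± 0.06 in HPC.

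The sort markers were compared next. Procr, which encodes CD201, stood at 64.3 to 64.7 CPM in HSC het and 41.3 to 55.5 CPM in HSC WT, and at 5.85 to 7.94 CPM in HPC het and 5.35 to 6.5 CPM in HPC WT. It rose in HSC (0.45 ± 0.10, adjusted p = 0.012), with a difference of 0.15 ± 0.18 that was not called. The rise of Procr in HSC was not called with all 18 RNA libraries in the fit (adjusted p = 0.157). Kit, the stem cell factor receptor, rose in HPC (0.37 ± 0.07, adjusted p = 0.00049), and its difference of -0.28 ± 0.10 was not called either. Ly6a, which encodes Sca1, was listed at 0 counts in all 12 libraries and was not tested.

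Slamf1 (chr1:171767131-171801184), which encodes CD150, was the sort marker whose response differed. It stood at 18.7, 19.5 and 21.3 CPM in HSC het, against 21.1, 18.4 and 19.6 CPM in HSC WT, and at 3.31, 4.33 and 3.48 CPM in HPC het, against 10.2, 9.74 and 13.3 CPM in HPC WT. The HSC groups overlapped, whereas every HPC het library lay below every HPC WT library. The change was 0.01 ± 0.12 in HSC and -1.58 ± 0.15 in HPC (adjusted p = 9.2e-08), and the difference of 1.59 ± 0.19 passed the test (adjusted p = 1.8e-05). HPC were sorted as negative for CD150, and in bulk RNA fewer cells with a transcript and less of it per cell cannot be told apart, here or for any gene below.

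A difference was called for 487 genes, 3.37% of those tested. For 204 of them (1.41%) it was above 0 and for 283 (1.96%) below 0, and 134 differed by more than 2-fold. At an unadjusted p under 0.05 there were 2214 genes. The median difference over all genes tested was -0.006. The count came to 288 without HPC WT replicate 3, 311 without HPC het replicate 3 and 284 with the homozygous libraries in the fit. It was 656 without HSC het replicate 2.

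Most of these differences came with a change in HPC. Among the 487, only the HPC effect was called for 357 genes and only the HSC effect for 45. Both effects were called in opposite directions for 29, in one direction for 17, and neither for 39. Within HPC, 1751 genes were called (12.1%), 990 higher (6.86%) and 761 lower (5.27%) in het. Within HSC, 702 were called (4.86%), 284 higher (1.97%) and 418 lower (2.9%) in het. The HSC count depends on single libraries: it was 133 without HSC WT replicate 1, 213 without HSC WT replicate 2, 409 without HSC het replicate 3 and 448 without HSC het replicate 1. Without HSC het replicate 2 it was 675, and without HSC WT replicate 3 it was 808. It was 258 with the homozygous libraries in the fit, 290 when the spread was taken from the 6 HSC libraries alone, and the HPC count was 2304 from the 6 HPC libraries alone. Of 260 genes called in both populations, 124 rose in both, 107 fell in both, 26 fell in HSC and rose in HPC, and 3 rose in HSC and fell in HPC.

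**Figure D1:**
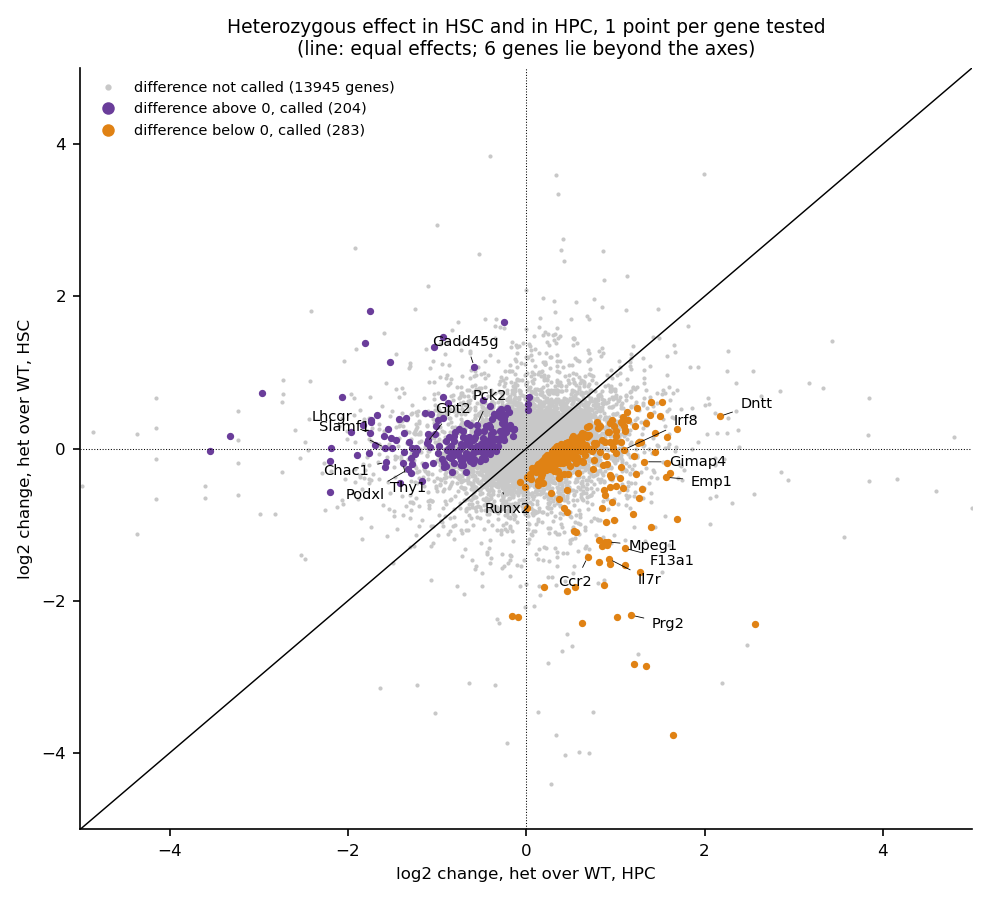
Each point is 1 of the 14432 genes tested, with the log2 change of het over WT in HPC on the horizontal axis and in HSC on the vertical axis. The line marks equal effects, the 204 and 283 called differences are coloured, and most of them spread along the horizontal axis, near 0 in HSC. 6 genes lie beyond the axes.

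Genes that cells switch on when amino acids run short fell in HPC and, with 1 exception, were not called in HSC. In this integrated stress response, phosphorylation of the initiation factor eIF2 raises translation of the transcription factor ATF4, which activates genes of amino acid uptake and synthesis, tRNA charging and the serine and one-carbon pathway. Of 22 genes listed for the response and the serine pathway, 21 were tested, and 15 had a called difference (71.4%), all above 0. In HPC 15 of the 21 fell and none rose. In HSC 1 rose and none fell. Of all genes tested 3.37% had a called difference, 5.27% fell in HPC and 1.97% rose in HSC. The median difference of the 21 was 0.93, with a median of -0.02 in HSC and -0.92 in HPC. Their summed level was 1104 to 1321 CPM in HSC het and 1218 to 1322 CPM in HSC WT, against 1463 to 1692 CPM in HPC het and 2566 to 2849 CPM in HPC WT. Atf4 itself was listed at 0 counts in every library and could not be tested.

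Slc3a2 (chr19:8706882-8723369), the heavy chain of amino acid transporters, had the smallest p of this list. It stood at 104, 99.6 and 124 CPM in HSC het, against 105, 113 and 103 CPM in HSC WT, and at 128, 143 and 134 CPM in HPC het, against 222, 246 and 259 CPM in HPC WT. The HSC groups overlapped and the HPC groups did not. The change was 0.03 ± 0.08 in HSC and -0.85 ± 0.08 in HPC (adjusted p = 4.6e-08), with a difference of 0.88 ± 0.11 (adjusted p = 2.3e-05).

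Mthfd2 and Psat1 belong to mitochondrial one-carbon metabolism and to serine synthesis. Mthfd2 stood at 31.6, 29.7 and 32.1 CPM in HSC het, against 40.3, 44.7 and 31.5 CPM in HSC WT, and at 61.6, 72.6 and 74.8 CPM in HPC het, against 164, 174 and 173 CPM in HPC WT. Its difference was 0.97 ± 0.14 (adjusted p = 0.00019), from -0.32 ± 0.10 in HSC, which did not pass, and -1.29 ± 0.09 in HPC. Psat1 stood at 144, 132 and 158 CPM in HSC het, against 187, 166 and 162 CPM in HSC WT, and at 222, 253 and 263 CPM in HPC het, against 458, 458 and 479 CPM in HPC WT. Here the HSC het libraries lay below the HSC WT libraries too, at -0.24 ± 0.08 (adjusted p = 0.06), and the difference was 0.68 ± 0.11 (adjusted p = 0.00035).

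3 further members were chosen after their values were seen. Asns, which makes asparagine, stood at 40.8, 35.9 and 45.4 CPM in HSC het, against 42.3, 48.2 and 37.5 CPM in HSC WT, and at 67.0, 83.8 and 87.7 CPM in HPC het, against 169, 188 and 212 CPM in HPC WT (difference 1.18 ± 0.17, adjusted p = 0.00095). Chac1, a glutathione-degrading enzyme, stood at 2.49, 3.08 and 3.94 CPM in HSC het, against 3.13, 4.17 and 3.41 CPM in HSC WT, and at 5.89, 7.26 and 6.96 CPM in HPC het, against 17.8, 21.5 and 20.6 CPM in HPC WT (difference 1.39 ± 0.24, adjusted p = 0.0011). For Ddit3, the stress factor CHOP, 5.82% of the exon bases overlap other genes, so its level is uncertain. It stood at 12.7, 14.2 and 14.8 CPM in HSC het, against 12.5, 14.8 and 13.5 CPM in HSC WT, and at 17.7, 21.1 and 22.7 CPM in HPC het, against 32.3, 44.6 and 53.4 CPM in HPC WT (difference 1.10 ± 0.21, adjusted p = 0.0039). In all 3 the HSC groups overlapped and every HPC het library lay below every HPC WT library. The other called members were Nupr1, Aldh1l2, Trib3, Slc6a9, Ddit4, Slc7a5, Sesn2, Shmt2 and Psph. The 15 called differences ran from 0.54 to 2.19, and Ddit4 was the member that rose in HSC.

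The 12 smallest p above 0 were taken among genes with at least 5 CPM in a group and no predicted name. They included Slc3a2, Pck2 and 2 further genes of amino acid metabolism. Gpt2, a mitochondrial alanine aminotransferase, stood at 27.4, 29.8 and 31.6 CPM in HSC het, against 27.4, 29.3 and 27.4 CPM in HSC WT, and at 30.9, 31.6 and 32.4 CPM in HPC het, against 61.8, 69.9 and 73.5 CPM in HPC WT (difference 1.19 ± 0.12, adjusted p = 8.9e-07). Aldh18a1, which makes a proline precursor, stood at 110, 107 and 116 CPM in HSC het, against 122, 120 and 118 CPM in HSC WT, and at 108, 127 and 118 CPM in HPC het, against 197, 221 and 230 CPM in HPC WT (difference 0.76 ± 0.10, adjusted p = 2.7e-05). Among 17 tested genes of proline and serine synthesis and amino acid transport, a list drawn up after values were seen and sharing members with the first, 9 differences were called, all above 0. In HPC 10 of these genes fell, and in HSC 1 fell. Of all genes tested 3.37% had a called difference, 5.27% fell in HPC and 2.9% fell in HSC.

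Pck2 went the opposite way in the 2 populations. It encodes mitochondrial phosphoenolpyruvate carboxykinase, and stood at 177, 175 and 189 CPM in HSC het, against 147, 143 and 148 CPM in HSC WT, and at 148, 162 and 162 CPM in HPC het, against 213, 232 and 247 CPM in HPC WT. It rose in HSC by 0.30 ± 0.06 (adjusted p = 0.01) and fell in HPC by 0.55 ± 0.06 on the log2 scale (adjusted p = 1.8e-06), a difference of 0.86 ± 0.09 (adjusted p = 2.6e-06). No het library overlapped a WT library in either population. The other genes called higher in HSC and lower in HPC were Slc25a28 and Nrgn.

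The cytosolic aminoacyl-tRNA synthetases, which load amino acids onto tRNAs, were listed after their values were seen. Of 20 members 12 had a called difference (60%), all above 0, from 0.33 to 0.77. In HPC 14 of the 20 fell and none rose, and in HSC none was called. Of all genes tested 3.37% had a called difference, and 5.27% fell in HPC. The median was -0.14 in HSC and -0.56 in HPC. Aars, for alanine, stood at 127, 123 and 135 CPM in HSC het, against 144, 156 and 139 CPM in HSC WT, and at 145, 177 and 162 CPM in HPC het, against 272, 316 and 333 CPM in HPC WT. Its HSC groups did not overlap either, but the change there was -0.19 ± 0.08 (adjusted p = 0.15), beside -0.93 ± 0.08 in HPC, and the difference was 0.74 ± 0.11 (adjusted p = 0.00022). Cars, for cysteine, differed by 0.77 ± 0.11 and Yars, for tyrosine, by 0.73 ± 0.10, with Yars uncertain because of a copy on an alternate contig.

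**Figure D2:**
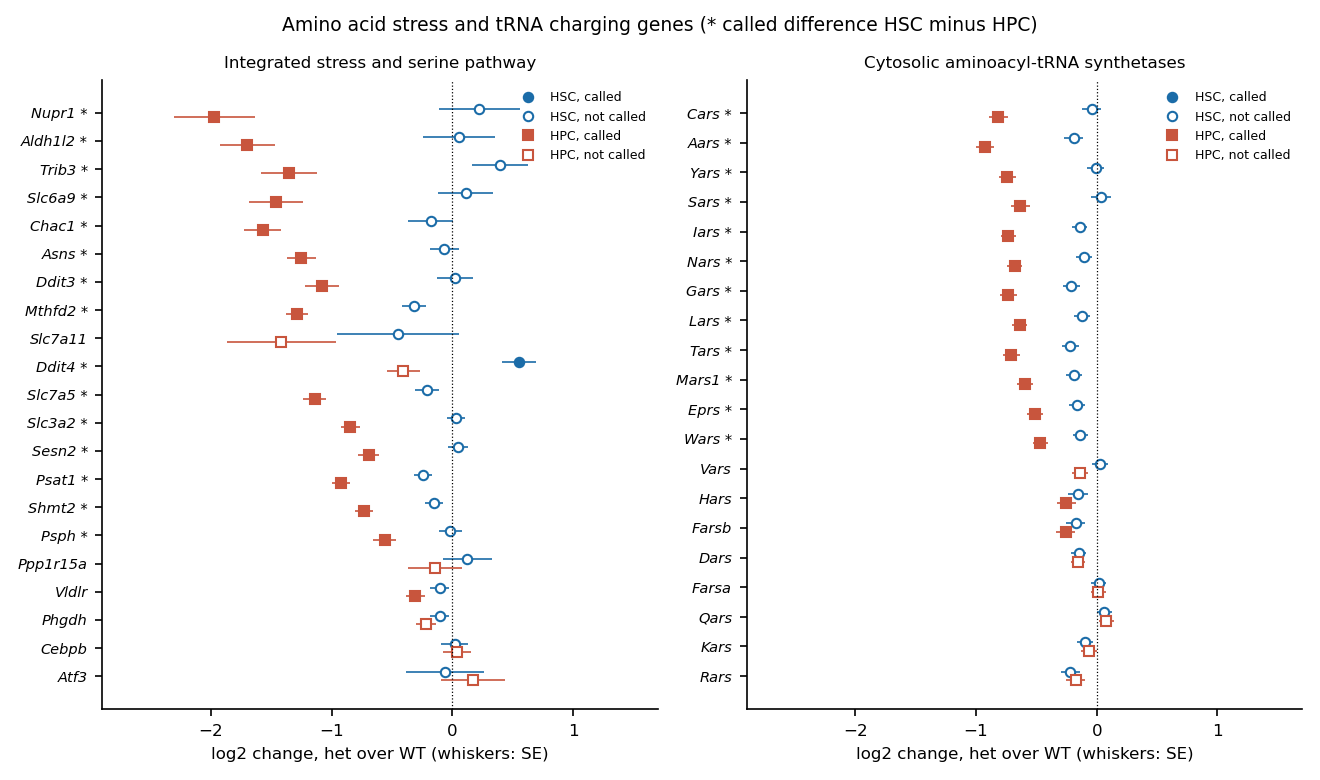
The log2 change of het over WT, with its standard error, is shown for each tested member of 2 lists, HSC as circles and HPC as squares, filled where called. The HPC squares of the starred genes lie left of 0, down to -1.97, whereas their HSC circles lie between -0.32 and 0.55.

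Promoter windows were searched for a motif that ATF4 and its C/EBP partners are known to bind and for the RUNX motif, and 4 are shown. Asns, Chac1 and Aars were picked from the genes whose window holds the first motif. The windows are RefSeq sequences of GRCm38.p6, the assembly of mm10, from 250 bases before to 50 bases after the annotated start, written 5′ to 3′ on the gene's strand. Capitals mark the motif TGATGNAA (TTNCATCA on the other strand) in Asns, Chac1 and Aars, and in Slc3a2 the RUNX core, whose letters are TGTGGT and which reads ACCACA when taken from the other strand. Asns (chr6:7693160-7693459, minus strand) holds the first motif 23 bases before the start and Chac1 (chr2:119350992-119351291, plus strand) 193 bases before it. Aars (chr8:111033592-111033891, plus strand) holds it 112 bases before and 9 bases after the start. Slc3a2 (chr19:8713848-8714147, minus strand) is shown because it leads the list without that motif in its window, and it holds the RUNX core 138 bases before the start.
Asns: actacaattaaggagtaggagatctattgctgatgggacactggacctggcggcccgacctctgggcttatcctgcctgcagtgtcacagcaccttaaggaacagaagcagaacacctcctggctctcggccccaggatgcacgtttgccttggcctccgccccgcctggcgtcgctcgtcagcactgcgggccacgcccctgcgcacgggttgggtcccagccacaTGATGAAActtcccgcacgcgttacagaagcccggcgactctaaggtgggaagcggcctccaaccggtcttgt
Chac1: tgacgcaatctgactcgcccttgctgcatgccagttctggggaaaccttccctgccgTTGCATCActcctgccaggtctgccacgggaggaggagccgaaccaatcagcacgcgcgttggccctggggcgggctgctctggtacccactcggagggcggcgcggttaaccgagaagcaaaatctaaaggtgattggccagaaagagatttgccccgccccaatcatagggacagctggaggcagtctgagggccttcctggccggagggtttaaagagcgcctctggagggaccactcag
Aars: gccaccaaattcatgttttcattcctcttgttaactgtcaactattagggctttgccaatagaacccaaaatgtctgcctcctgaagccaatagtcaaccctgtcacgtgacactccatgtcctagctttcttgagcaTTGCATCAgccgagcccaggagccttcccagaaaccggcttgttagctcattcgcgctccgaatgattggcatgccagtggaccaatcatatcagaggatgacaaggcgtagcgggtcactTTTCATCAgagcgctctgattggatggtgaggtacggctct
Slc3a2: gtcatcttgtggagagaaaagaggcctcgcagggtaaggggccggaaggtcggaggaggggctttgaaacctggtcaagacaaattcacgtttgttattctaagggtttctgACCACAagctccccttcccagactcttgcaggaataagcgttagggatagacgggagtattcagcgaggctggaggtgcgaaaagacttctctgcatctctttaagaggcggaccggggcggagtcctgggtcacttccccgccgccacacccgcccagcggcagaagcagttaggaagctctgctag

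The first motif was found in 7 of 23 windows of the stress and serine list (19 of its 21 tested genes had a window), namely those of Asns, Atf3, Chac1, Nupr1, Slc7a11, Trib3 and Vldlr. Of these Atf3, Slc7a11 and Vldlr had no called difference, and among the called members 4 of 16 windows (25%) held the motif. It was found in 5 of 13 windows of the tRNA synthetases (Aars, Gars, Iars, Tars and Yars), of which 13 of 20 genes had a window. Of the 32851 windows searched 3.97% held it, and of the 13825 searched windows of genes tested 2.5% held it. Over all called genes it was in 9.09% of 198 windows where the difference was above 0 and in 2.45% of 326 where it was below 0. The RUNX core was found in 4 of the 23 windows of the stress list, against 16.76% of all windows searched. In the same 2 sets of windows it was in 16.67% above 0 and 19.02% below 0, against 13.74% of the windows of genes tested. The 2 motifs share bases in 3 of the windows searched. The windows of a whole chromosome were left out of the search and are not reported here. A match is a description of letters and not of binding.

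Monocyte and macrophage genes went the other way. Of 20 listed genes 17 were tested and 11 had a called difference (64.7%), all below 0, with a median of -1.11. In HPC 13 of the 17 rose and none fell, and in HSC 3 fell and none rose. Of all genes tested 3.37% had a called difference, 6.86% rose in HPC and 2.9% fell in HSC. Their summed level was 292 to 312 CPM in HSC het and 280 to 298 CPM in HSC WT, against 1189 to 1231 CPM in HPC het and 628 to 696 CPM in HPC WT. The macrophage genes C1qa and C1qb did not pass the filter, with at most 1 count in a library. Some tested members were near the floor in HSC, such as Ly6c2 at up to 0.477 CPM and Ly86 at up to 0.596 CPM. Their differences rest largely on the HPC change. Whether the share of cells with a monocyte programme changed was not tested.

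Irf8 (chr8:120736358-120756694), the factor that directs progenitors to monocytes and dendritic cells, stood at 11.8, 11.7 and 10.6 CPM in HSC het, against 10.2, 10.8 and 13.3 CPM in HSC WT. In HPC het it stood at 146, 150 and 141 CPM, against 63.4, 77.1 and 64.1 CPM in HPC WT. The groups overlapped in HSC and were separate in HPC, where Irf8 rose by 1.09 ± 0.08 (adjusted p = 2.6e-09). The difference was -1.11 ± 0.13 (adjusted p = 1.5e-05). Lyz2, the lysozyme of myeloid cells, stood at 151 to 168 CPM in HSC het and 146 to 157 CPM in HSC WT, and at 319 to 340 CPM in HPC het and 184 to 201 CPM in HPC WT, a difference of -0.71 ± 0.09 (adjusted p = 1.9e-05). Ctss, a lysosomal protease of antigen-presenting cells, stood at 24.6 to 28.5 CPM in HSC het and 26 to 28.8 CPM in HSC WT, and at 64.5 to 81.7 CPM in HPC het and 35.4 to 41.4 CPM in HPC WT, a difference of -1.07 ± 0.13 (adjusted p = 2.1e-05).

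Of the monocyte list, F13a1, Ccr2 and Cx3cr1 fell in HSC while they rose in HPC. Mpeg1, the pore-forming protein of macrophages and not a member of the list, did the same. It stood at 1.96, 2.04 and 2.57 CPM in HSC het, against 5.62, 5.28 and 4.57 CPM in HSC WT, and at 133, 156 and 144 CPM in HPC het, against 74.8, 88.6 and 66.6 CPM in HPC WT. F13a1, a coagulation factor subunit made by monocytes and platelets, stood at 1.39, 1.28 and 1.41 CPM in HSC het, against 4.35, 3.7 and 2.24 CPM in HSC WT, and at 37.9, 43.7 and 36 CPM in HPC het, against 17.9, 19.3 and 17.5 CPM in HPC WT. Ccr2, the receptor that draws monocytes from the marrow, stood at 1.42, 1.23 and 1.25 CPM in HSC het, against 3.02, 4.47 and 3.03 CPM in HSC WT, and at 73.9, 55.8 and 63.1 CPM in HPC het, against 39.9, 43.4 and 36.3 CPM in HPC WT. The het libraries of Mpeg1, F13a1 and Ccr2 did not overlap the WT libraries of their population. The differences were -2.14 ± 0.19 for Mpeg1, -2.41 ± 0.25 for F13a1 and -2.12 ± 0.23 for Ccr2 (adjusted p = 2.7e-07, 1.6e-06 and 2.8e-06), and the HSC values rest on 26 to 124 counts a library. Among the 26 genes called lower in HSC and higher in HPC were also Il7r, Ccr7, Prg2, Il1r1 and Nr4a3.

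A list of progenitor and lymphoid priming genes, called the lymphoid priming list here, shared this direction. Lymphoid priming genes are those that multipotent progenitors express before they choose a lymphoid fate. The list also holds broader progenitor genes, such as Cd34 and Cd48. Of 20 listed genes 15 were tested and 6 had a called difference (40%), all below 0, with a median of -0.60. In HPC 11 of the 15 rose and none fell. In HSC 1 rose and 2 fell. Of all genes tested 3.37% had a called difference and 6.86% rose in HPC, while 1.97% rose and 2.9% fell in HSC. Rag1, Rag2, Ighm, Ikzf3 and Ccr9 did not pass the filter, with at most 12 counts in a library. Blnk was tested but stood at no more than 0.457 CPM in an HSC library, so its difference rests largely on HPC. Among the 6 were Flt3, Dntt, Satb1, Ccr7 and Il7r.

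Flt3 (chr5:147330741-147400489), the receptor tyrosine kinase that marks lymphoid-primed progenitors, stood at 194, 217 and 220 CPM in HSC het, against 188, 172 and 203 CPM in HSC WT, and at 386, 402 and 381 CPM in HPC het, against 178, 221 and 184 CPM in HPC WT. It rose in HPC by 1.00 ± 0.08 (adjusted p = 3.9e-09), beside 0.16 ± 0.08 in HSC, which did not pass, and the difference was -0.84 ± 0.11 (adjusted p = 4.1e-05). Dntt, the terminal transferase of early lymphocytes, stood at 19.8, 28.2 and 28 CPM in HSC het, against 17.7, 15.7 and 23 CPM in HSC WT, and at 29.8, 31.6 and 32.1 CPM in HPC het, against 5.45, 8.3 and 7.03 CPM in HPC WT. Its difference of -1.75 ± 0.23 (adjusted p = 0.00017) set a rise of 2.17 ± 0.17 in HPC beside 0.42 ± 0.15 in HSC. Satb1, a chromatin organiser of lymphoid cells, stood at 186, 188 and 172 CPM in HPC het, against 97.3, 123 and 106 CPM in HPC WT, with overlapping groups in HSC (difference -0.77 ± 0.12, adjusted p = 0.00021).

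Il7r and Ccr7 fell in HSC and rose in HPC. Il7r, the interleukin-7 receptor, stood at 0.285, 0.332 and 0.201 CPM in HSC het, against 0.583, 0.936 and 0.706 CPM in HSC WT, which are 5 to 8 counts against 11 to 22. In HPC het it stood at 9.39, 8.05 and 9.46 CPM, against 4.32, 5.51 and 4.32 CPM in HPC WT, and the difference was -2.38 ± 0.41 (adjusted p = 0.001). Ccr7, a homing receptor of lymphocytes and dendritic cells, stood at 3.6, 2.09 and 4.54 CPM in HSC het, against 6.25, 6.26 and 7.68 CPM in HSC WT. In HPC het it stood at 13.2, 19.2 and 19.1 CPM, against 9.15, 8.45 and 10.2 CPM in HPC WT, and the difference was -1.86 ± 0.28 (adjusted p = 0.00035).

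Gimap4 (chr6:48684578-48692062) had the smallest p below 0 among genes with at least 5 CPM in a group and no predicted name. It belongs to the GIMAP GTPases, a cluster of lymphocyte survival genes on chromosome 6. It stood at 58.5, 47.9 and 52.5 CPM in HSC het, against 59.1, 62.6 and 57.9 CPM in HSC WT, and at 60.2, 58 and 64 CPM in HPC het, against 25, 26.6 and 21.1 CPM in HPC WT. The HSC groups overlapped, and every HPC het library lay above every HPC WT library. The change was -0.17 ± 0.08 in HSC and 1.33 ± 0.09 in HPC, and the difference was -1.50 ± 0.12 (adjusted p = 1.5e-07). Of 8 GIMAP genes, listed after values were seen, 5 had a called difference (62.5%), all below 0. In HPC 6 rose and none fell, and in HSC 1 rose and none fell. Of all genes tested 3.37% had a called difference, 6.86% rose in HPC and 1.97% rose in HSC. Gimap6 differed by -0.67 ± 0.10 and Gimap8 by -0.51 ± 0.10.

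**Figure D3:**
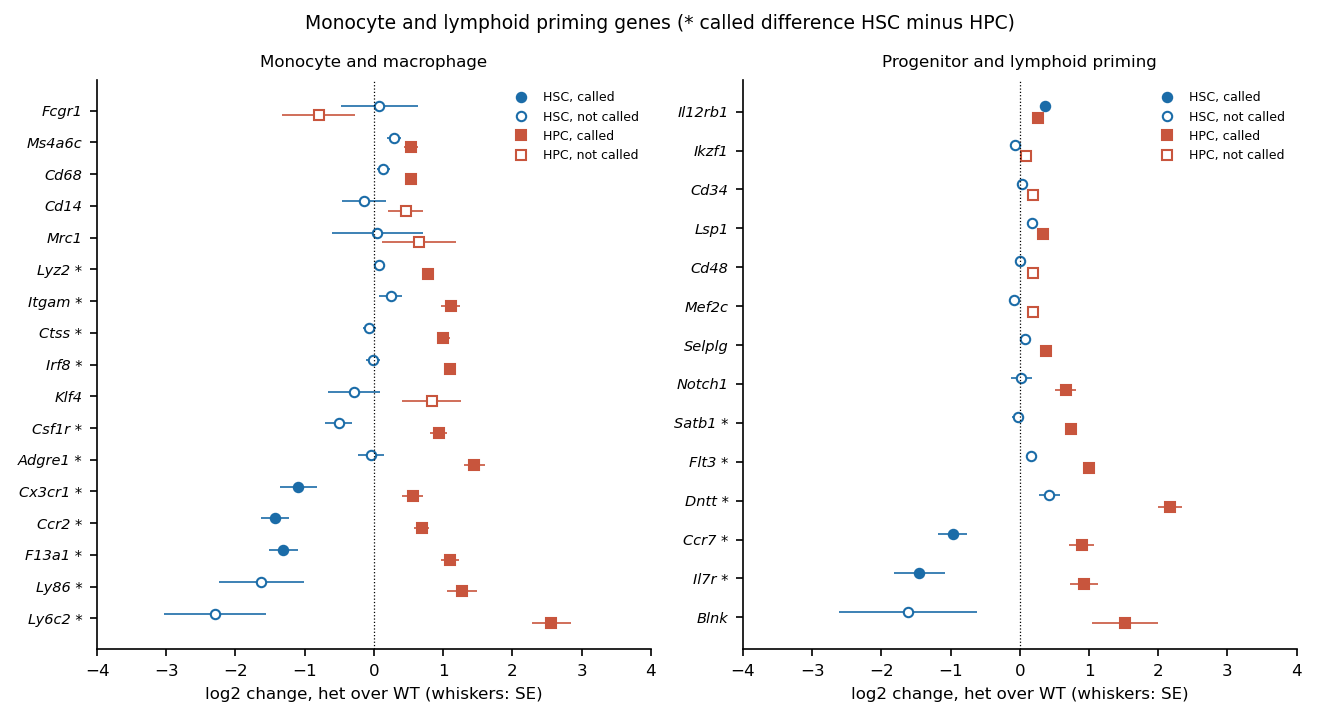
The log2 change of het over WT, with its standard error, is shown for tested members of the monocyte and the lymphoid priming list, HSC as circles and HPC as squares, filled where called. The HPC squares of the starred genes lie between 0.56 and 2.56, and their HSC circles between -2.30 and 0.42.

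Stem cell genes were mixed. Of 33 genes listed for HSC identity 32 were tested, 7 differences were called above 0 and 1 below 0, with a median of 0.18. In the fit of all 18 libraries 5 were called. In HSC 3 rose and none fell, and in HPC 3 rose and 8 fell. Of all genes tested 3.37% had a called difference, 1.97% rose in HSC, and 6.86% rose and 5.27% fell in HPC. With all 18 libraries in the fit 0 members were called in HSC. The called members above 0 included Slamf1, Thy1, Ctnnal1, Esam, Pdzk1ip1 and Tie1. Thy1, a surface protein of stem and T cells, stood at 28.5, 24.4 and 34.5 CPM in HSC het, against 35.4, 35 and 29.1 CPM in HSC WT, and at 9.13, 11 and 9.95 CPM in HPC het, against 28.5, 26.2 and 23.9 CPM in HPC WT. The difference was 1.20 ± 0.17 (adjusted p = 0.00011), with overlapping groups in HSC and separate ones in HPC. Ctnnal1, a catenin relative used as a stem cell reporter gene, stood at 27.5 to 30 CPM in HSC het and 25.9 to 27.2 CPM in HSC WT, and at 8.11 to 9.62 CPM in HPC het and 14.2 to 18.7 CPM in HPC WT (difference 0.99 ± 0.15, adjusted p = 0.00034). Esam, an adhesion molecule of stem and endothelial cells, stood at 45.1 to 45.8 CPM in HSC het and 33.3 to 41 CPM in HSC WT, and at 3.23 to 3.97 CPM in HPC het and 4.83 to 5.92 CPM in HPC WT (difference 0.94 ± 0.17, adjusted p = 0.0016). Robo4, chosen after its values were seen, was the member below 0, at -0.78 ± 0.19 (adjusted p = 0.022). Its call was lost for 5 of the 12 libraries when each was omitted, with an adjusted p of up to 0.0735.

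Megakaryocyte and platelet genes had 5 called differences among 20 tested members (25%), all above 0. In HPC 6 fell and none rose, and in HSC none was called. Of all genes tested 3.37% had a called difference, and 5.27% fell in HPC. The median was -0.01 in HSC and -0.66 in HPC, and the summed level was 1436 to 1556 CPM in HSC het and 1367 to 1464 CPM in HSC WT, against 1696 to 1994 CPM in HPC het and 2059 to 2153 CPM in HPC WT. Itga2b, the platelet integrin CD41, stood at 117, 103 and 152 CPM in HSC het, against 123, 132 and 121 CPM in HSC WT, and at 173, 208 and 184 CPM in HPC het, against 343, 324 and 376 CPM in HPC WT (difference 0.87 ± 0.16, adjusted p = 0.0085). Pf4, the platelet chemokine, differed by 0.93 ± 0.15 (adjusted p = 0.0014), with levels uncertain because of a copy on an alternate contig. Gp9, part of the von Willebrand factor receptor, differed by 1.31 ± 0.24 (adjusted p = 0.0018), and Rab27b, which serves granule release, by 0.72 ± 0.12 (adjusted p = 0.00095). The call of Rab27b was lost in the fit of all 18 libraries (adjusted p = 0.098). The remaining called member was Gp5.

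Podxl, a sialomucin of stem cells and endothelium, stood at 188, 176 and 182 CPM in HSC het, against 218, 202 and 239 CPM in HSC WT, and at 93.1, 107 and 101 CPM in HPC het, against 258, 231 and 264 CPM in HPC WT. It fell in both, by 0.27 ± 0.07 in HSC and 1.32 ± 0.07 in HPC on the log2 scale, and the fall in HPC was larger (difference 1.05 ± 0.10, adjusted p = 7.6e-07). Myh10, a non-muscle myosin, stood at 127, 132 and 116 CPM in HSC het, against 135, 145 and 146 CPM in HSC WT, and at 45.2, 47.5 and 44.8 CPM in HPC het, against 101, 87.7 and 94.6 CPM in HPC WT (difference 0.86 ± 0.10). Cttn, the actin-binding cortactin, stood at 39.6 to 47.8 CPM in HSC het and 41.8 to 46 CPM in HSC WT, and at 13.2 to 16.3 CPM in HPC het and 33.1 to 35.5 CPM in HPC WT (difference 1.25 ± 0.13). Abca4, Clstn3, Tgm2 and Lhcgr likewise fell in HPC and were not called in HSC, with differences of 1.33 ± 0.14, 1.21 ± 0.14, 0.90 ± 0.11 and 1.95 ± 0.25. Lhcgr, the luteinising hormone receptor, stood at 22.3 to 30.1 CPM in HSC het and 19.6 to 25.7 CPM in HSC WT, and at 1.4 to 1.85 CPM in HPC het and 4.63 to 6.6 CPM in HPC WT.

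Below 0, 5 further genes of smallest p, Emp1, Emb, Adgrl4, Itgb5 and Wfdc17, rose in HPC and were not called in HSC. Emp1, an epithelial membrane protein, stood at 12, 11 and 13.2 CPM in HSC het, against 14, 14.2 and 18.7 CPM in HSC WT, and at 34.2, 33.8 and 37.1 CPM in HPC het, against 11.1, 12.4 and 12 CPM in HPC WT (difference -1.94 ± 0.16, adjusted p = 1.6e-07). Its HSC het libraries also lay below its HSC WT libraries, at -0.38 ± 0.12 (adjusted p = 0.06). Emb, the adhesion protein embigin, stood at 102 to 115 CPM in HSC het and 112 to 122 CPM in HSC WT, and at 496 to 521 CPM in HPC het and 262 to 290 CPM in HPC WT (difference -0.99 ± 0.09). Adgrl4, an adhesion receptor of endothelium, stood at 596 to 690 CPM in HSC het and 539 to 634 CPM in HSC WT, and at 358 to 407 CPM in HPC het and 184 to 204 CPM in HPC WT (difference -0.89 ± 0.11). The integrin subunit Itgb5 differed by -0.87 ± 0.10 and the secreted protein gene Wfdc17 by -1.43 ± 0.18.

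**Figure D4:**
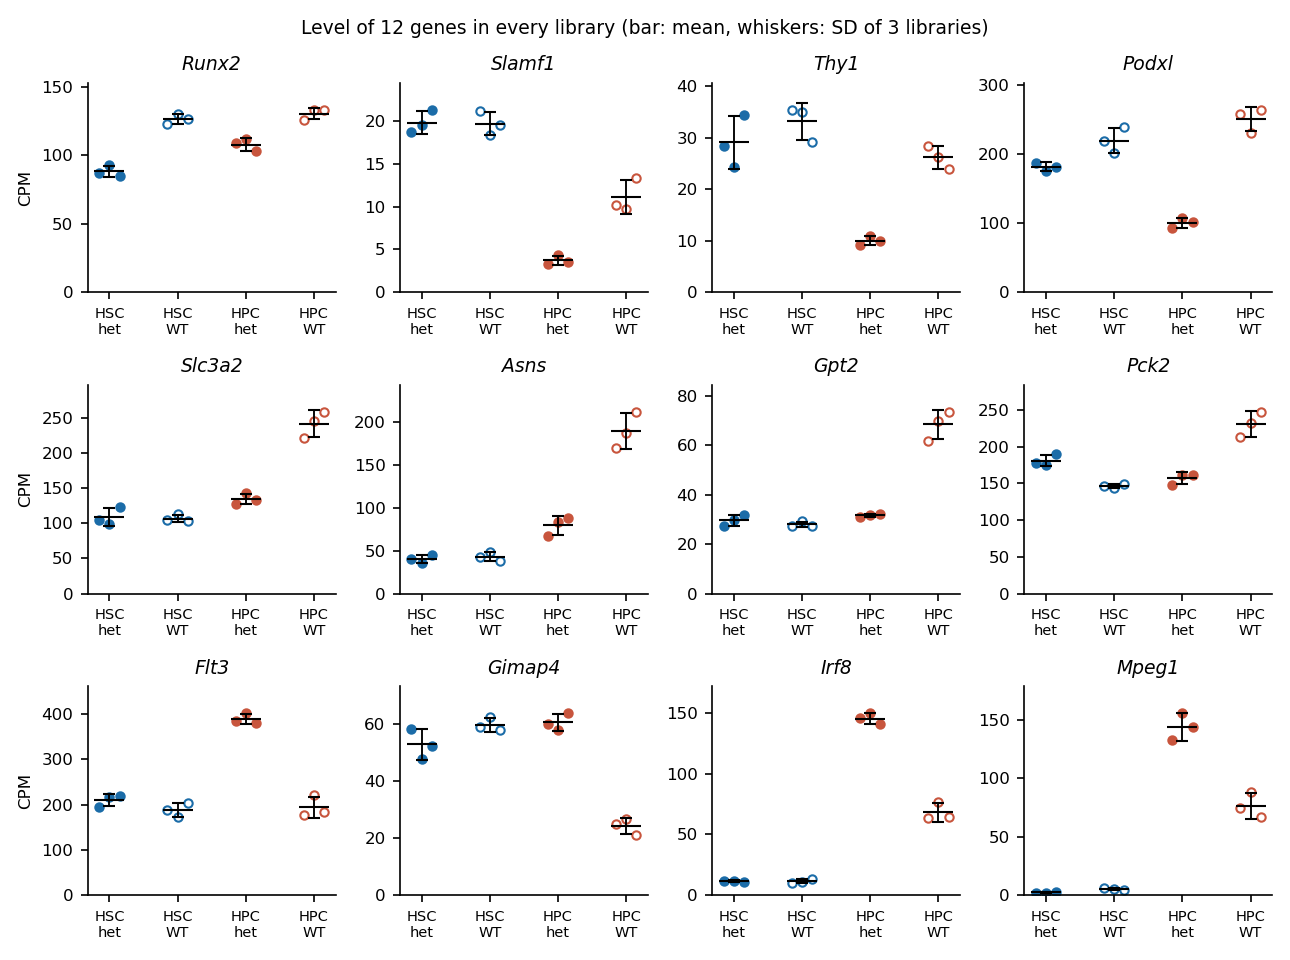
CPM of 12 named genes in every library, with the mean and SD of 3 libraries, filled circles for het and open circles for WT. Slamf1, Thy1, Slc3a2, Asns and Gpt2 are lower in HPC het than in HPC WT with overlapping HSC groups, Flt3 and Irf8 are higher in HPC het with overlapping HSC groups, and Pck2 and Mpeg1 separate het from WT in both populations.

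The remaining lineage lists are set here against the 3.37% of all genes tested that had a called difference. The differences of 15 neutrophil granule genes tested had a median of -0.47. Some of these genes had next to no counts in HSC, such as S100a9 and Fcnb at 0 CPM in every HSC library. Their differences only mirror the HPC change, so the median is partly fixed by it. In HPC 4 of these genes rose and none fell, and in HSC 2 rose and none fell. Only 1 of the 15 (6.67%) had a called difference, Elane, the neutrophil elastase, at -2.13 ± 0.44 (adjusted p = 0.011). It stood at 0.463, 0.19 and 0.724 CPM in HSC het, against 0.848, 1.4 and 1.16 CPM in HSC WT, and at 75.8, 52.6 and 54.7 CPM in HPC het, against 36.3, 28.3 and 37.1 CPM in HPC WT. Of 14 eosinophil, basophil and mast cell genes 2 (14.3%) had one, Prg2 and Ms4a2. Prg2, the major basic protein, had 2, 1 and 3 counts in HSC het and 6, 7 and 13 in HSC WT, and stood at 26.3, 26.5 and 33.3 CPM in HPC het, against 13.8, 13.2 and 11.1 CPM in HPC WT. Its fitted difference of -3.37 ± 0.54 (adjusted p = 0.00049) depends on how such low counts are treated, as does that of Ms4a2, a subunit of the IgE receptor, at -2.01 ± 0.42 (adjusted p = 0.0066) with 1 to 7 counts in HSC het. Leaving out HSC WT replicate 2 ended the calls of Elane (adjusted p = 0.0608) and Ms4a2 (adjusted p = 0.0601), and leaving out HSC WT replicate 3 that of Elane (adjusted p = 0.0507). Elane was not called in the fit of all 18 libraries either (adjusted p = 0.231).

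Among 20 dendritic cell and MHC class II genes 4 differences (20%) were called, all below 0, those of Flt3, Ccr7, Ccl22 and Tcf4. In HPC 7 of the 20 rose. Tcf4, a factor of plasmacytoid dendritic cells, stood at 181 to 214 CPM in HSC het and 209 to 228 CPM in HSC WT, and at 284 to 290 CPM in HPC het and 224 to 237 CPM in HPC WT (difference -0.42 ± 0.09, adjusted p = 0.0092). Ccl22, a chemokine of activated dendritic cells, differed by -2.02 ± 0.40 (adjusted p = 0.012). Among 21 cytokine receptors 5 differences (23.8%) were called, all below 0, and in HPC 13 rose and 2 fell, Epor and Il18r1. Of all genes tested 6.86% rose and 5.27% fell in HPC. The list shares members with other lists, such as Epor with the erythroid and Il18r1 with the natural killer list. The count of 5 was 8 without HSC het replicate 2 and 3 in the fit of all 18 libraries. Il1r1, the interleukin-1 receptor, stood at 118, 111 and 107 CPM in HSC het, against 137, 137 and 137 CPM in HSC WT, and at 138, 133 and 136 CPM in HPC het, against 110, 109 and 107 CPM in HPC WT. It fell in HSC by 0.29 ± 0.06 on the log2 scale and rose in HPC by 0.32 ± 0.06, a difference of -0.61 ± 0.08 (adjusted p = 6.9e-05) that was not called in the fit of all 18 libraries (adjusted p = 0.0818).

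T-cell commitment genes, which the series is about, had 3 differences above 0 and 1 below 0 among 11 tested members (36.4%). Beside Thy1, these were Lat, Lck and Cd28. Lat, an adaptor of the T-cell receptor, stood at 44.6, 42.6 and 51.3 CPM in HSC het, against 41.2, 36.9 and 38.2 CPM in HSC WT, and at 19.9, 22.1 and 25.6 CPM in HPC het, against 35.5, 37.6 and 41.6 CPM in HPC WT (difference 1.01 ± 0.14, adjusted p = 5.4e-05). Cd28, a T-cell costimulatory receptor whose levels are uncertain because of a copy on an alternate contig, rose in HPC by 0.90 ± 0.15, with a difference of -1.11 ± 0.25 (adjusted p = 0.017) that was lost without HSC WT replicate 2 (adjusted p = 0.071). The CD3 genes Cd3d, Cd3e and Cd3g, Ptcra and Bcl11b, which mark committed T cells, did not pass the filter, with at most 4 counts in a library.

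Of 11 natural killer and innate lymphoid genes 2 (18.2%) were called, 1 below 0 (Klrd1, -2.37 ± 0.64, adjusted p = 0.038) and 1 above 0 (Zbtb16, 0.63 ± 0.17, adjusted p = 0.042). Each lost its call on omission of any of 8 of the 12 libraries, with adjusted p up to 0.183 for Klrd1 and 0.129 for Zbtb16. The Klrd1 value rests on 0 to 5 counts in HSC het and 4 to 11 in HSC WT. Of 11 erythroid genes 1 was called, Hemgn, at 0.58 ± 0.10 (adjusted p = 0.0015). None was called among 4 B-cell and 6 endothelial and stromal genes. The B-cell genes summed to 19 to 23 CPM in HSC het and 18 to 22 CPM in HSC WT, and to 25 to 26 CPM in HPC het and 17 to 20 CPM in HPC WT, and Pax5, Ebf1 and Ms4a1 had at most 8 counts in a library.

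**Figure D5:**
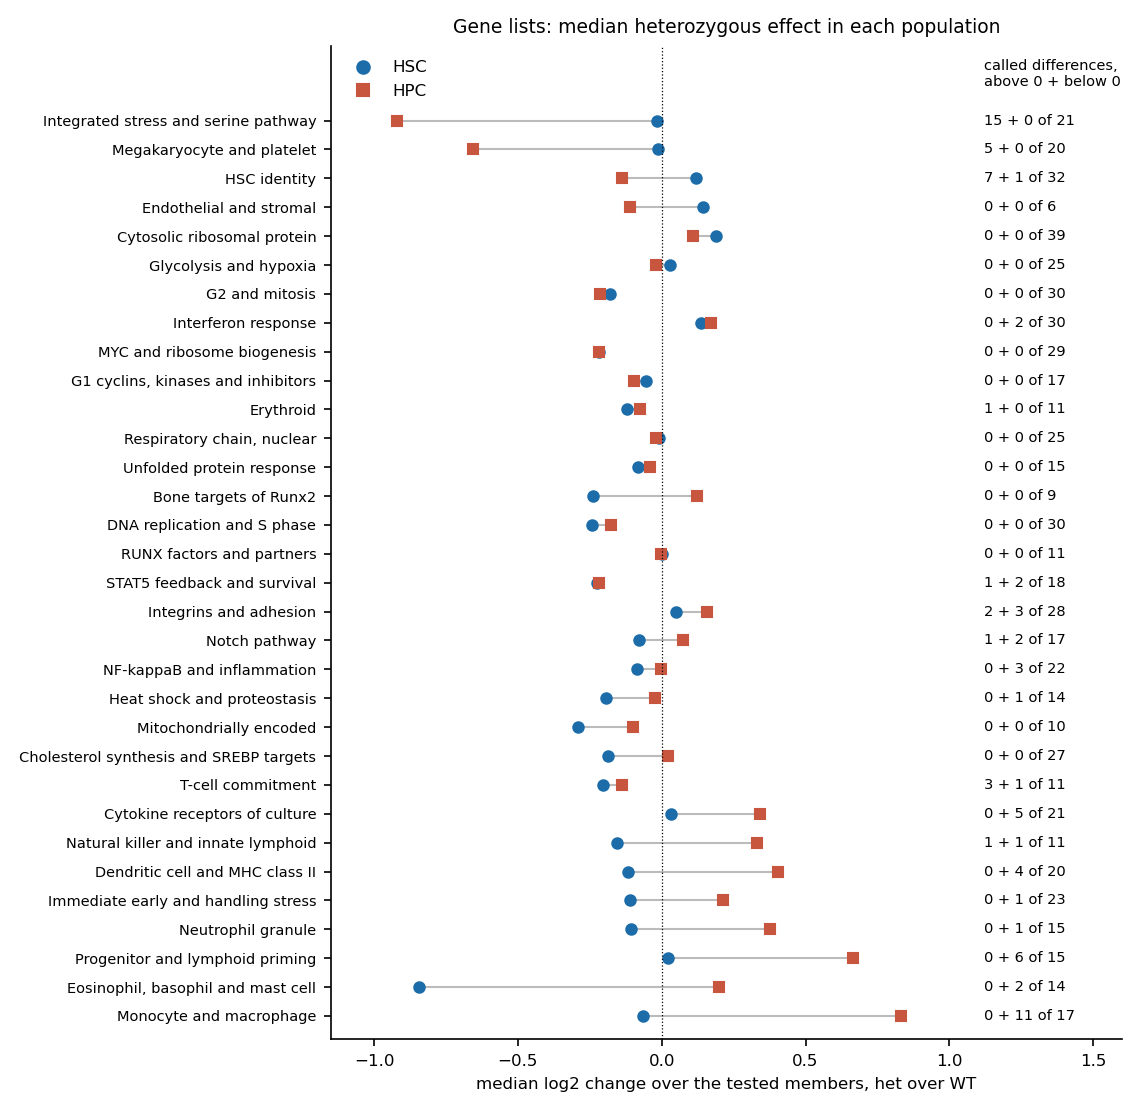
Each row is a gene list with at least 5 tested members, the circle marks the median log2 change of het over WT in HSC and the square that in HPC, and the numbers at the right count the called differences above and below 0. The widest gaps with many calls are those of the stress and serine list (15 of 21 above 0) and the monocyte list (11 of 17 below 0).

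Lists of growth genes held no called difference, and part of their members fell. Of all genes tested 2.9% fell in HSC and 5.27% in HPC. Of 30 DNA replication and S phase genes 11 fell in HSC and 5 in HPC, none rose, and the median difference was -0.06. Mcm4, a subunit of the replicative helicase, stood at 182, 178 and 181 CPM in HSC het, against 250, 243 and 218 CPM in HSC WT, and at 223, 214 and 226 CPM in HPC het, against 275, 221 and 218 CPM in HPC WT (difference -0.28 ± 0.11, adjusted p = 0.17). Of 30 genes of G2 and mitosis 4 fell in HSC and 11 in HPC, with a median difference of 0.04. Of 29 MYC and ribosome biogenesis genes 11 fell in HSC and 12 in HPC, where 1 rose, and the median difference was 0.00. With all 18 libraries in the fit fewer fell: 3 in HSC and 2 in HPC for S phase, 1 in HSC and 6 in HPC for G2 and mitosis, and 3 in each for the MYC list. In that fit the genes called in either direction also went from 702 to 258 in HSC and from 1751 to 1282 in HPC. Without HPC WT replicate 1, 2 differences of the S phase list were called, both below 0. Myc fell in HSC by 0.36 ± 0.08 on the log2 scale (adjusted p = 0.02), beside 0.03 ± 0.08 in HPC, and its difference of -0.38 ± 0.12 did not pass (adjusted p = 0.087). Mycn fell in HPC by 0.33 ± 0.06 on the log2 scale (adjusted p = 0.00045), beside -0.04 ± 0.06 in HSC, and its difference of 0.29 ± 0.08 did not pass (adjusted p = 0.055). The 39 cytosolic ribosomal protein genes, 10 mitochondrially encoded genes, 25 nuclear genes of the respiratory chain, 25 glycolysis genes, 17 G1 regulators and 9 bone targets of Runx2 had no called difference. Nor had the 27 cholesterol genes, although 25 of their differences were below 0, with a median of -0.21, and 7 were called below 0 without HPC WT replicate 1.

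The unfolded protein response, a neighbouring stress programme, also had 0 called differences among 15 tested genes, with medians of -0.08 in HSC and -0.04 in HPC. Herpud1, a target of this response, stood at 80.4, 82.6 and 92.9 CPM in HSC het, against 83.4, 100.5 and 79.8 CPM in HSC WT, and at 75.1, 83.9 and 81.3 CPM in HPC het, against 102, 106 and 110 CPM in HPC WT. It fell in HPC by 0.40 ± 0.08 on the log2 scale (adjusted p = 0.0012), and its difference of 0.36 ± 0.11 was not called (adjusted p = 0.087).

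The homozygous libraries give values to set beside these, from one fit of all 18 libraries in which het and hom are measured against the same WT libraries. Runx2 changed by -2.23 ± 0.07 in HSC hom and -2.42 ± 0.07 in HPC hom. In the stress and serine list 8 of 21 members fell in HPC hom (median -0.33) and 14 in HPC het (median -0.92). In the monocyte list 10 of 17 rose in HPC hom (median 0.78) and 12 in HPC het (median 0.83). In the lymphoid priming list 4 rose and 1 fell in HPC hom (median 0.16), and 9 rose in HPC het (median 0.67). In the megakaryocyte list 2 of 20 fell in HPC hom (median 0.04) and 6 in HPC het (median -0.66). Slamf1 changed by -0.68 in HPC hom and -0.17 in HSC hom, and Gimap4 by 0.74 in HPC hom and 0.10 in HSC hom. In the dendritic cell and MHC class II list 1 rose and 6 fell in HPC hom (median -0.37), and 6 rose in HPC het (median 0.40). Other lists held more calls in hom in at least 1 population. In the neutrophil granule list 9 of 15 rose in HPC hom (median 0.89) and 2 in HPC het (median 0.38). In the eosinophil, basophil and mast cell list 7 rose and 1 fell in HPC hom, and 2 rose and 1 fell in HPC het. In the interferon response list 15 of 30 rose in HSC hom and 3 in HSC het, and in HPC 2 and 5. Of 30 G2 and mitosis genes 15 fell in HSC hom and 1 in HSC het, and in HPC 0 and 6. The HSC minus HPC difference of the hom effect was called for 0 stress, 6 monocyte, 1 lymphoid priming, 1 megakaryocyte and 0 dendritic cell genes. For the het effect in this fit the counts were 12, 10, 5, 4 and 4. Over all genes 284 differences of the het effect were called in this fit. The calls of the hom effects over all genes were not counted, so the hom counts of the lists cannot be set against them. Differences between hom and het were not tested.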

How the data were processed

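RNA of sorted, cultured mouse cells was sequenced after poly(A) selection, per the labels' protocols. The deposited counts are whole read pairs per gene: the authors counted them with featureCounts 2.0.6 over exons of an mm10 ncbiRefSeq annotation, without strand, per the file headers. FastQC, Trim Galore 0.6.10 and STAR 2.7.11a are named, with build mm39, per the submitters' processing notes, so the build of the alignment is not settled, and coordinates are those of the count tables. Without strand, a gene and an overlapping antisense gene cannot be told apart.

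The HSC and HPC tables were joined by gene identifier, and genes on X or Y were dropped before normalization. Libraries held 16663497 to 27061457 counts. edgeR 4.0.16 (R 4.3.3) was used with TMM factors, its filter on low counts and a robust quasi-likelihood fit of 4 group means over 12 libraries, and p-values were adjusted by Benjamini-Hochberg over all 14432 genes tested. The standard error is the size of the log2 change divided by the square root of F. CPM are scaled to the counts outside X and Y with the TMM factors. The fit was tested on simulated data. Alternatives used DESeq2 1.42.0 and limma 3.58.1. Tables and figures were made with Python 3.11.15, pandas 2.3.3, numpy 2.4.6 and matplotlib 3.10.9.

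The comparison and the gene lists were chosen with earlier results of these data known. Named genes are the RUNX genes, the sort markers, the 12 genes of smallest p in each direction with at least 5 CPM in a group and no predicted name, and up to 3 members of each list. The lists of tRNA synthetases, GIMAP genes and amino acid genes, and Asns, Chac1, Ddit3 and Robo4, were added after their values were seen. The 2 CUT&Tag samples were not analysed here, and some list members, although counted, are not reported here by name.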

Additional observations from a re-analysis of the deposited data

Results flagged for a closer look

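The test of the difference between the het effects in HSC and in HPC flagged the count of 487 called genes and each of the 70 named genes whose difference passed it. All values here are log2 differences, the het effect in HSC minus the het effect in HPC, from edgeR's quasi-likelihood test. No explanation was weighed, and cell type and sex cannot be told apart in these libraries.

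In amino acid metabolism, stress and tRNA charging the differences were Slc3a2 0.88, Mthfd2 0.97, Psat1 0.68, Asns 1.18, Chac1 1.39, Ddit3 1.10, Gpt2 1.19, Aldh18a1 0.76, Pck2 0.86, Aars 0.74, Cars 0.77 and Yars 0.73. For stem cell, T-cell, platelet and erythroid genes they were Slamf1 1.59, Thy1 1.20, Ctnnal1 0.99, Esam 0.94, Lat 1.01, Rab27b 0.72, Pf4 0.93, Gp9 1.31, Itga2b 0.87 and Hemgn 0.58. The other genes above 0 were Podxl 1.05, Cttn 1.25, Abca4 1.33, Myh10 0.86, Clstn3 1.21, Tgm2 0.90, Lhcgr 1.95 and Gadd45g 1.66, and the other genes below 0 were Gimap4 -1.50, Emp1 -1.94, Mpeg1 -2.14, Emb -0.99, F13a1 -2.41, Ccr2 -2.12, Itgb5 -0.87, Adgrl4 -0.89, Irf8 -1.11, Lyz2 -0.71, Ctss -1.07, Wfdc17 -1.43, Flt3 -0.84, Dntt -1.75, Satb1 -0.77, Prg2 -3.37, Ccr7 -1.86, Tcf4 -0.42, Nr4a3 -2.11, Ccl22 -2.02, Ccl5 -0.72, Il1r1 -0.61, Il7r -2.38, Il2ra -1.31, Gimap6 -0.67 and Gimap8 -0.51.

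Another 14 genes lost the call in at least 1 of the 12 fits that left out 1 library, at Cd28 -1.11, Ms4a2 -2.01, Elane -2.13, Mcl1 -0.45, Gbp2 -0.53, Notch3 0.49, Robo4 -0.78, Cish -0.65, Hspa8 -0.44, Birc3 -0.36, Klrd1 -2.37, Zbtb16 0.63, Maml3 -0.42 and Ifit2 -0.47. Leaving out HSC WT replicate 2 ended the calls of Cd28 and Ms4a2, and of Elane, which was also lost without HSC WT replicate 3. Mcl1 was lost in 3 fits (without HPC het replicate 3, HPC WT replicate 3 or HSC WT replicate 2) and Gbp2 in 4 (the same 3 and HSC het replicate 1). Notch3, Robo4 and Cish were lost in 5 fits each, Hspa8 in 6, Birc3 in 7, Klrd1, Zbtb16 and Maml3 in 8 each and Ifit2 in 10. The highest adjusted p in these fits was 0.183, for Klrd1 without HSC WT replicate 1. Rab27b, Ccl5, Il1r1 and Il2ra kept the call in those fits and lost it with all 18 libraries in the fit.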

How the results depend on the processing

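The count of 487 differences was 284 with all 18 RNA libraries in the fit, and ranged from 288 to 656 when each library was left out in turn. The HSC count of 702 was 258 with all 18 libraries and 290 from the 6 HSC libraries alone, and ranged from 133 to 808 with 1 library left out. The HPC count of 1751 ranged from 1218 to 2023 in those fits. The cause was not tested. The other alternatives (RLE size factors, DESeq2, voom with sample weights, low counts left in, a filter of 1 CPM in 3 libraries, X and Y kept) moved none of the 3 counts by more than 1.5 times. Of the 70 named genes with a called difference none changed sign under any alternative, 56 were called in all 12 fits that left out 1 library and 53 under all the others. With all 18 libraries 13 lost the call (Elane, Rab27b, Zbtb16, Gbp2, Ifit2, Hspa8, Ccl5, Birc3, Il1r1, Il2ra, Notch3, Maml3 and Robo4), with voom 5 (Elane, Ms4a2, Klrd1, Zbtb16 and Maml3) and with the 1 CPM filter 1 (Maml3). Het and WT libraries of the same replicate number correlated at -0.0458, -0.0389 and 0.102 in HSC and at -0.134, 0.208 and -0.195 in HPC, and not every library correlated best with its own number, so the numbers were not taken as pairs. With the replicate block the counts were 393 for the difference, 548 in HSC and 1596 in HPC, and 5 named genes lost the call (Zbtb16, Mcl1, Cish, Birc3 and Maml3). Depth limits genes with few counts in HSC, such as Prg2, Il7r, Klrd1 and Ms4a2.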

Other observations

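Signalling and stress lists outside the main groups are set against the 3.37% of all genes tested with a called difference. Of 18 genes of STAT5 feedback and survival 1 was above 0 and 2 below 0 (16.7%), and 1 was called without HPC het replicate 3, without HPC WT replicate 3 or with the replicate block. Gadd45g, a growth arrest gene, stood at 4.73, 3.37 and 5.43 CPM in HSC het, against 1.59, 2.17 and 2.62 CPM in HSC WT, and at 1.46, 1.34 and 1.63 CPM in HPC het, against 2.42, 2.01 and 2.23 CPM in HPC WT. It rose in HSC by 1.08 ± 0.24 (adjusted p = 0.0134), and its difference was 1.66 ± 0.37 (adjusted p = 0.0104). Of 17 Notch pathway genes 1 was above 0 and 2 below 0 (17.6%), and 1 was called without HPC WT replicate 3 or HSC WT replicate 2 and 0 with all 18 libraries in the fit. Notch3, a Notch receptor, stood at 50.5, 50.2 and 51.6 CPM in HSC het, against 33.2, 34.5 and 39.4 CPM in HSC WT, and at 22.1, 22.6 and 20.9 CPM in HPC het, against 20.0, 22.2 and 22.5 CPM in HPC WT. It rose in HSC by 0.51 ± 0.08 (adjusted p = 0.00121), and its difference of 0.49 ± 0.12 lost its call on omission of any of 5 of the 12 libraries.

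Of 22 NF-kappaB and inflammation genes 3 differences (13.6%) were called, all below 0, and 1 with all 18 libraries. Ccl5, a chemokine of T cells and myeloid cells, stood at 30.8, 29.2 and 35.1 CPM in HSC het, against 22.0, 27.3 and 25.5 CPM in HSC WT, and at 115, 114 and 114 CPM in HPC het, against 67.0, 50.1 and 46.8 CPM in HPC WT (difference -0.72 ± 0.16, adjusted p = 0.0129, and 0.303 with all 18 libraries). Of 23 immediate early genes 1 was called, Nr4a3, an orphan nuclear receptor, at -2.11 ± 0.45 (adjusted p = 0.00725), with 11 to 29 counts in HSC het and 13 to 52 in HSC WT. Of the 23 differences 21 were below 0, with a median of -0.46. Libraries of a group differed widely in some members. Fos stood at 75.2, 1.71 and 1.09 CPM in HPC het, and Ier2 at 124, 260 and 151 CPM in HSC WT. Of 30 interferon response genes 2 (6.67%) were called, Gbp2 and Ifit2, both below 0, and 7 rose in HPC and 4 in HSC. Gbp2 lost its call on omission of any of 4 libraries and Ifit2 on omission of any of 10, and with all 18 libraries neither was called (adjusted p = 0.254 and 0.101). The number of called differences below 0 in this list was 0 without HPC het replicate 3, HPC WT replicate 3, HSC het replicate 1 or HSC WT replicate 2, and 5 without HSC het replicate 2.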
